A study of Mus musculus with 8 samples.

Results

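The enzymes that write, copy and remove cytosine methylation were followed in the prepubertal mouse testis by RNA-seq, through 8 genes taken by symbol from the gene count table of every mouse. They were *Dnmt1*, *Uhrf1*, *Dnmt3a*, *Dnmt3b*, *Dnmt3l*, *Tet1*, *Tet2* and *Tet3*, 8 of the 40840 genes listed. All 8 were present in the tables and all 8 were among the 19104 genes that passed the filter on low counts. Whole testes of 12-day-old males on a C57BL/6J background were compared between 4 wild type mice and 4 *Tra2b-cPEko* mice. *Tra2b* encodes Tra2β, a splicing factor that binds GAA-rich RNA, and its poison exon is an ultraconserved exon whose inclusion sends the transcript to decay. Per the study's methods, wild type mice carried the floxed poison exon allele (*Tra2bPE* fl/+) without Cre, and *Tra2b-cPEko* mice carried the floxed allele over a deleted allele together with *Vasa-Cre*. *Vasa-Cre* acts in germ cells, so the somatic cells of these testes (Sertoli, Leydig, peritubular, endothelial and immune cells) keep the floxed copy beside the deleted allele, and whole testis RNA mixes both compartments. The comparison asked whether loss of this exon in germ cells went with other levels of the methylation enzymes at an age when spermatogonia and early spermatocytes make up the germ line.

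DNMT1 copies methylation onto the new DNA strand after replication, guided by UHRF1, which recognises hemimethylated CpG sites. DNMT3A and DNMT3B methylate DNA that carried no mark, and DNMT3L, which has no catalytic activity, stimulates them and is needed for methylation of retrotransposons and imprinted regions in male germ cells before birth. TET1, TET2 and TET3 oxidise 5-methylcytosine to 5-hydroxymethylcytosine, 5-formylcytosine and 5-carboxylcytosine, the last pair of which can be cut out and replaced by base excision repair.

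Because Tra2β binds GAA-rich RNA, the coding sequences were searched for GAAGAA, counting overlapping matches. The canonical coding sequence of every gene of the set held it on the sense strand, from 1 match in *Uhrf1* (0.426 per kb) to 10 in *Tet1* (1.66 per kb). *Tet2* held 7 matches, *Tet3* 6, *Dnmt1* 5, *Dnmt3b* 4, *Dnmt3a* 3 and *Dnmt3l* 2. On the antisense strand the same sequences held between 0 (*Uhrf1* and *Tet1*) and 5 (*Dnmt1*). Of 21674 mouse coding sequences, 65.7% held GAAGAA on the sense strand and 46.3% on the antisense strand. The median over these sequences was 0.881 matches per kb and the upper quartile 1.79. By density, all of the 8 but *Uhrf1* lay above the median, the next lowest being *Dnmt1* at 1.03 per kb. All 8 lay below the upper quartile. The longest runs are shown here for *Dnmt1* and *Tet3*, with the overlapping GAAGAA matches in capitals. They lie in coding exon 23 of *Dnmt1* (GRCm39, chr9:20831170-20831199, minus strand) and coding exon 11 of *Tet3* (GRCm39, chr6:83347435-83347464, minus strand).
Dnmt1: gcatcagggGAAGAAGAAGAAgcagaacaa
Tet3: gcggcggccgaGAAGAAGAAgctgcagaag
A match describes the letters only. Gene counts do not resolve exons, so splicing of these exons was not measured here.

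The promoters of these genes differed widely in CpG content, CpG being the site that these enzymes act on. RefSeq gave 15 promoters for all 8 genes, each of 300 bases (250 before the start and 50 after it, GRCm38.p6). Taking the promoter richest in CpG for each gene, *Tet2* held 57, *Dnmt3a* 47, *Dnmt1* and *Uhrf1* 33 each, *Dnmt3b* 30, *Tet3* 22, *Tet1* 17 and *Dnmt3l* 6. Over 32851 mouse promoters the median was 7 and the upper quartile 20, 94.6% held at least 1 CpG, and 11.7% held 30 or more. By its richest promoter, 5 of the 8 genes reached 30. The 2 counts are not like for like, because taking the richest promoter of a gene raises its count. The other promoters of *Dnmt1* held 12 and 2 CpG, and the other promoter of *Uhrf1* held 12. The richest promoters of the extreme genes by that measure, *Dnmt3l* with the fewest CpG and *Tet2* with the most, are printed with every CpG in capitals. The *Dnmt3l* promoter lies at chr10:78042037-78042336 (plus strand) and the *Tet2* promoter at chr3:133544341-133544640 (minus strand), both in GRCm38.p6.
Dnmt3l: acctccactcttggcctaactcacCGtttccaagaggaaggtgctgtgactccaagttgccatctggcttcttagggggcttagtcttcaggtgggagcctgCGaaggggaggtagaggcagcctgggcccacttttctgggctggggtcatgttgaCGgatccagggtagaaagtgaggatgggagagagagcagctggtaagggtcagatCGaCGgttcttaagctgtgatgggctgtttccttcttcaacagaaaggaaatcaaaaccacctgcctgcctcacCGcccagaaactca
Tet2: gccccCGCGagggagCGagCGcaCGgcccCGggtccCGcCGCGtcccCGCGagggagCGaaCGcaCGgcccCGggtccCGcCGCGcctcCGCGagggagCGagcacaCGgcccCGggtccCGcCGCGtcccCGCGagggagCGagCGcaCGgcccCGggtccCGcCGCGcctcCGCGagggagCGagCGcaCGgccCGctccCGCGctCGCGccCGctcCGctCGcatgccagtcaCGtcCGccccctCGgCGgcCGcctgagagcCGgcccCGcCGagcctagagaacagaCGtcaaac
DNA methylation itself was not measured in these samples.

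Each library held between 36757386 and 59101569 reads counted on genes, and the 8 genes together took 0.101% to 0.113% of them. Except for *Dnmt3l*, no gene of the set had fewer than 549 reads in any mouse. *Tra2b* itself was at 156 to 176 CPM (counts scaled to the same library size in every mouse) in wild type and at 190.3 to 209 CPM in *Tra2b-cPEko*, but gene counts cannot show the deletion of an exon and so do not check the labels. Wild type mice A and B stood apart from the other 6: on the principal component of largest variance they scored -29.3 and -30.5, against -3.70 and 3.0 for wild type D and C and 9.07 to 24.99 for *Tra2b-cPEko*. The summed level of 14 pachytene spermatocyte markers was 534 and 547 CPM in these 2 mice, against 328 and 379 CPM in wild type C and D and 348 to 409 CPM in *Tra2b-cPEko*. None of the 106 markers of the 9 cell type lists was at 0 in any mouse. The following values are therefore given mouse by mouse, with the contrast repeated without either wild type pair. These pairs were taken from the same data, so the p-values of the repeated fits are description and not a test. In bulk testis RNA, fewer cells of a type and less RNA per cell cannot be told apart.

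Compared per length, the maintenance enzyme was the most abundant. In TPM (counts divided by the union of exon lengths, then scaled to the same total in every library), *Dnmt1* was at 206 ± 7.08 (SD, n = 8 mice), followed by *Uhrf1* at 168 ± 6.11. *Tet3* was next at 86.5 ± 6.57 and *Dnmt3a* at 82.4 ± 4.25, and these neighbours did not separate: their ranges overlapped and *Tet3* was the higher in 6 of the 8 mice. *Dnmt3b* followed at 66.5 ± 6.80, below *Dnmt3a* in 8 of 8 mice although the ranges over mice overlapped. *Tet2* (10.2 ± 0.693), *Tet1* (6.83 ± 1.06) and *Dnmt3l* (1.45 ± 0.322) were the lowest, with no overlap between neighbours. The order depends in part on the exon model, because *Tet3* has 16695 bases in the union of its exons and 5944 in its canonical transcript. With canonical lengths *Tet3* rose to 129.8 TPM, beside *Uhrf1* at 130.2 TPM, and the pair then overlapped.

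**Figure D1:**
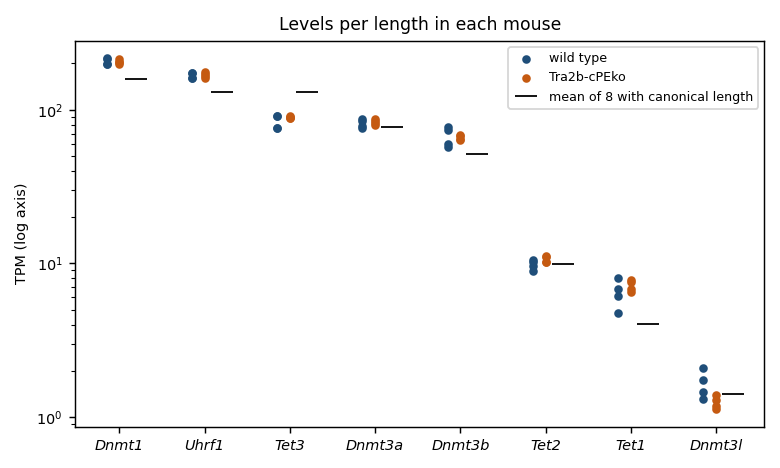
Level of the 8 genes in TPM on a log axis, each point a mouse (wild type and Tra2b-cPEko in separate colours). Dnmt1 and Uhrf1 are the highest, Tet3 and Dnmt3a overlap, and Dnmt3l, at 1.12 to 2.09 TPM, is the lowest.

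The composition of each family is given by shares, with no test. Of the summed TPM of the 3 catalytic methyltransferases, *Dnmt1* made up 58.3% ± 1.48 in wild type and 57.9% ± 0.605 in *Tra2b-cPEko*, *Dnmt3a* 22.9% ± 0.186 and 23.5% ± 0.488, and *Dnmt3b* 18.8% ± 1.56 and 18.6% ± 0.961 (SD, n = 4 each). *Tet3* made up 83.7% ± 0.858 of the TET sum in wild type and 83.3% ± 0.512 in *Tra2b-cPEko*, *Tet2* 9.86% ± 0.462 and 9.95% ± 0.534, and *Tet1* 6.42% ± 0.840 and 6.72% ± 0.470. With canonical lengths the *Tet3* share was 90.4% in wild type and 90.2% in *Tra2b-cPEko*.

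The maintenance pair, *Dnmt1* and *Uhrf1*, differed little between the genotypes. *Dnmt1* (GRCm39, chr9:20817945-20871184, minus strand) was at 294, 299, 317 and 315 CPM in wild type mice A to D and at 294, 312, 299 and 303 CPM in *Tra2b-cPEko* mice A to D. Mouse A was the lowest of each genotype, wild type C and D were the highest of the 8 mice, and the groups overlapped. The means were 306 ± 11.4 and 302 ± 7.62 CPM (SD, n = 4), a log2 fold change of -0.02 with a standard error of 0.04 (adjusted p = 0.852 by edgeR's quasi-likelihood test over all genes tested). The 95% interval ran from -7.41% to 4.92%. *Uhrf1* (chr17:56610275-56630489, plus strand), the only gene of the set that no other annotated gene overlaps, was at 149, 161, 159 and 149 CPM in wild type and at 152, 145, 155 and 159.7 CPM in *Tra2b-cPEko*. The groups overlapped over nearly their whole range. Its log2 fold change was -0.01 (SE 0.05), with a 95% interval from -7.42% to 6.15% (edgeR adjusted p = 0.923).

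The catalytic de novo enzymes also overlapped between the genotypes, while the cofactor *Dnmt3l* had the lowest values in *Tra2b-cPEko* mice. *Dnmt3a* (chr12:3856007-3964443, plus strand) was at 230.4, 229, 256 and 249 CPM in wild type and at 234, 255, 240.4 and 251 CPM in *Tra2b-cPEko*. Wild type A and B were the lowest of the 8 mice, and the other 6 formed a single range. Its log2 fold change was 0.02 (SE 0.05), with a 95% interval from -5.68% to 9.30% (edgeR adjusted p = 0.870). *Dnmt3b* (chr2:153490861-153529650, plus strand) was at 64.1, 62.5, 82.8 and 79.2 CPM in wild type and at 74.1, 68.2, 68.3 and 72.6 CPM in *Tra2b-cPEko*. Wild type mice took both ends of the range, A and B lowest and C and D highest, with the *Tra2b-cPEko* mice between them. The log2 fold change was -0.03 (SE 0.09, edgeR adjusted p = 0.910). Leaving out wild type A and B took it to -0.19 (edgeR unadjusted p = 0.00368, adjusted p = 0.235). Leaving out C and D took it to 0.16 (edgeR unadjusted p = 0.0131, adjusted p = 0.0961). Neither value passed the adjusted threshold. Both fits were added after the values had been seen, and their direction follows from which pair is kept.

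*Dnmt3l* (chr10:77877781-77899456, plus strand) had few reads in every mouse. It was counted with 31, 40, 37 and 66 reads in wild type and with 30, 27, 32 and 23 reads in *Tra2b-cPEko*, or 0.701, 0.946, 0.778 and 1.12 CPM against 0.601, 0.735, 0.684 and 0.626 CPM. Wild type D was the highest mouse, 3 of the 4 *Tra2b-cPEko* mice lay below every wild type mouse, and the groups overlapped between *Tra2b-cPEko* B and wild type A. The exact Poisson 95% intervals, which cover counting error only, were 0.865 to 1.42 CPM for wild type D and 0.397 to 0.940 CPM for *Tra2b-cPEko* D. The means were 0.886 ± 0.185 and 0.662 ± 0.0601 CPM (SD, n = 4), a log2 fold change of -0.43 (SE 0.19) or -25.8%, with a 95% interval from -44.5% to -0.702%. The unadjusted p was 0.0454 by edgeR's quasi-likelihood test, but the adjusted p over all genes tested was 0.317, and DESeq2 gave an unadjusted p of 0.119, so that the difference did not pass the threshold. Leaving out wild type D, the highest mouse, took the log2 fold change to -0.29. Exons of *Dnmt3l* overlap exons of *Aire* on the other strand. *Aire* had 5 to 19 reads per library. The libraries were made with a stranded kit, but whether counting used strand is not given in the sources used here, so that it is not known whether reads of the 2 genes were separated.

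The TET genes had higher means in *Tra2b-cPEko*, and for each of them the mice of the 2 genotypes overlapped. *Tet3* (chr6:83339355-83436066, minus strand) was at 221, 223, 264 and 265 CPM in wild type and at 256, 261, 253 and 258 CPM in *Tra2b-cPEko*. The *Tra2b-cPEko* mice lay between the pair of low wild type mice, A and B, and the pair of high ones, C and D. Its coefficient of variation over mice was 10.1% in wild type and 1.29% in *Tra2b-cPEko*. The log2 fold change was 0.08 (SE 0.06), with a 95% interval from -3.70% to 15.8% (edgeR adjusted p = 0.564). *Tet3* shares exon sequence with *Bola3* on the other strand, which was at 12.7 to 17.1 CPM. *Tet2* (chr3:133169436-133250900, minus strand) was at 29.6, 28.1, 32.1 and 31.6 CPM in wild type and at 34.2, 31.1, 33.5 and 31.6 CPM in *Tra2b-cPEko*. Wild type A and B were again lowest, and *Tra2b-cPEko* A and C were highest. Its log2 fold change was 0.10 (SE 0.06), with a 95% interval from -1.80% to 17.3% (edgeR adjusted p = 0.433). *Tet1* (chr10:62640349-62744775, minus strand), best known from embryonic stem cells and primordial germ cells, was at 16.6, 13.0, 21.5 and 18.4 CPM in wild type and at 17.6, 20.8, 19.99 and 18.4 CPM in *Tra2b-cPEko*. The wild type values spanned all of the *Tra2b-cPEko* values. Its log2 fold change was 0.14 (SE 0.13), with a 95% interval from -9.84% to 34.7% (edgeR adjusted p = 0.643).

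**Figure D2:**
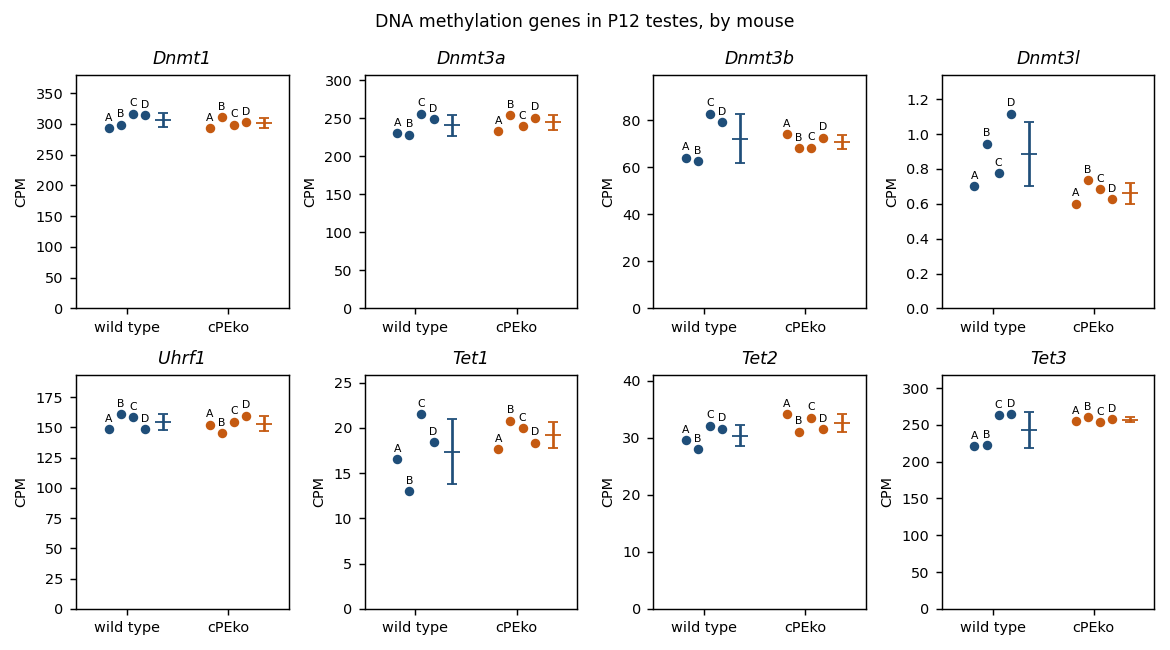
CPM of each of the 8 genes by mouse, with the group mean and SD as bars (n = 4 per genotype, each panel with its own axis). In 8 of 8 panels the genotypes overlap, and the Tra2b-cPEko points of Tet3 lie between the lower and the upper pair of wild type points.

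None of the 8 genes was called at an adjusted p under 0.05 by edgeR, where 0.157% of all genes tested were called (30 of 19104), and none by DESeq2, where 2.79% were. At an unadjusted p under 0.05, edgeR gave 1 of the 8 (*Dnmt3l*) and 15.3% of all genes tested. Split by direction, 8.22% of all genes had an unadjusted p under 0.05 and were higher in *Tra2b-cPEko*, and 7.07% were lower. DESeq2 gave 0 of the 8 at an unadjusted p under 0.05, beside 9.69% of the genes it fitted. The groups did not overlap for 0 of the 8 and for 8.54% of all genes. 4 genes had higher and 4 had lower means, and the median log2 fold change was 0.0047, beside -0.0011 over all genes tested. The two-sided exact permutation test over the 70 arrangements of the mice, which cannot go below p = 0.0286, gave 0.0571 for *Dnmt3l*, 0.171 for *Tet2* and between 0.429 and 0.886 for the other 6 genes.

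**Figure D3:**
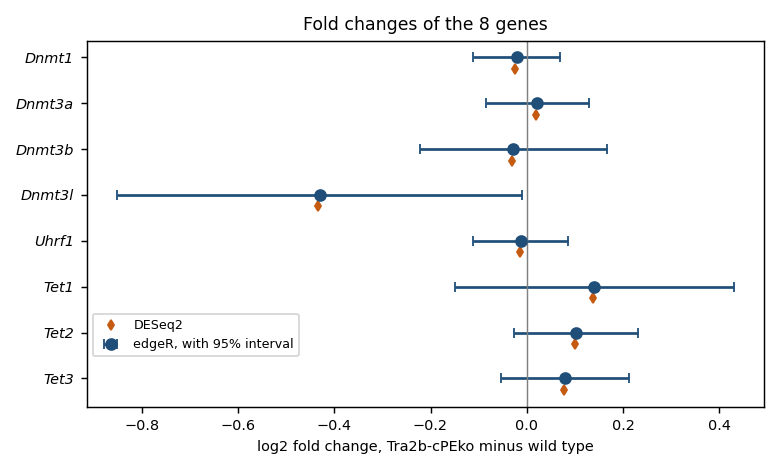
Log2 fold change of each of the 8 genes (Tra2b-cPEko minus wild type) with its 95% interval from the edgeR fit, and the DESeq2 estimate beside it. Dnmt3l, at -0.43, has the widest edgeR interval (-0.85 to -0.01).

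The spread among wild type mice had a shape shared by most of the set. Wild type A and B both lay below C and D for 6 of the 8 genes (*Dnmt1*, *Dnmt3a*, *Dnmt3b* and the 3 TET genes), as did 22.3% of all genes tested, while 23.8% of all genes showed the opposite order. For 5 of these, all but *Dnmt1*, they lay below every other mouse, as did 10.1% of all genes. *Uhrf1* and *Dnmt3l* did not show this order. The germ cell marker lists moved with the same mice. Pachytene markers were higher in wild type A and B, as given above, as were 22 leptotene and zygotene markers, at a sum of 2754 and 2515 CPM against 1991 and 2056 CPM in C and D and 2116 to 2217 CPM in *Tra2b-cPEko*. The 13 markers of undifferentiated spermatogonia went the other way, from 312 and 315 CPM in B and A to 367 and 365 CPM in C and D, with *Tra2b-cPEko* mice at 330.3 to 341 CPM. The part of these cell types in the enzyme levels was not tested. With the pachytene list as a covariate of the edgeR fit, *Tet1* and *Tet3* went to -0.02 and -0.01 on the log2 scale and *Dnmt3b* to -0.15 (unadjusted p = 0.014, not called). With the S phase list as the covariate the TET values went the other way, *Tet1* to 0.66 (unadjusted p = 0.0107, not called) and *Tet3* to 0.17, and *Dnmt3a* went to 0.17 and *Dnmt3l* to -0.63 (unadjusted p = 0.161). This covariate, the mean log2 CPM of the S phase list, did not overlap between genotypes (6.79 to 6.83 in wild type, 6.72 to 6.77 in *Tra2b-cPEko*). It therefore cannot be told apart well from genotype. The summed CPM of the same list did overlap (2463 to 2567 in wild type, 2402 to 2485 in *Tra2b-cPEko*). Leaving out 1 mouse moved *Tet1* from its 0.14 to between 0.03 (without wild type B) and 0.26 (without wild type C), and it was not called in any of these fits. Without wild type C and D, 2 of the 8 genes passed the threshold: *Tet3* rose by 0.20 (edgeR adjusted p = 0.0171) and *Tet1* by 0.37 (edgeR adjusted p = 0.0475), in a fit that called 8.29% of all genes tested. Without A and B the values were -0.04 and -0.06 and neither was called, in a fit that called 1 of 19858 genes (0.00504%). Both fits were added after seeing the data. Wild type A and B were already the lowest mice for *Tet1* and *Tet3*, so calls made against that pair alone are no test of these genes.

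**Figure D4:**
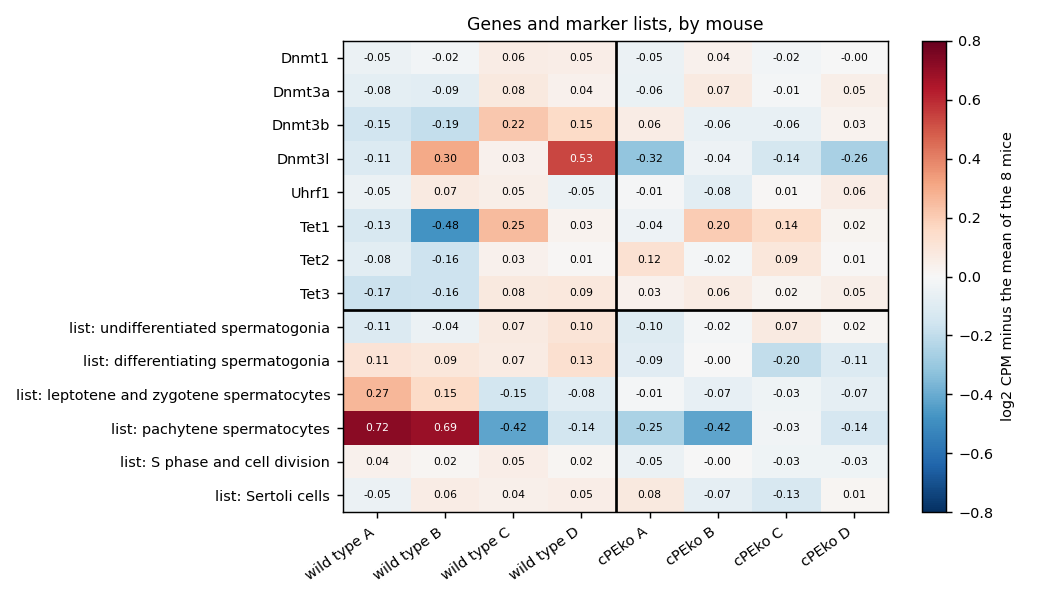
Heat map of the level of the 8 genes and of 6 gene lists in each mouse, as log2 CPM minus the mean over the 8 mice. Wild type A and B are below the mean for Dnmt3a, Dnmt3b and the TET genes and above it for the pachytene list (0.72 and 0.69).

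Among 3 other lists, only the differentiating spermatogonia separated the genotypes by summed CPM. The summed level of 9 markers of differentiating spermatogonia was 998 to 1052 CPM in wild type and 829 to 969 CPM in *Tra2b-cPEko*, without overlap, and *Sohlh1*, a transcription factor of that stage, fell from 47.5 ± 3.02 to 37.4 ± 1.03 CPM (SD, n = 4; edgeR adjusted p = 0.0341). The 10 macrophage markers summed to 142 to 176 CPM in wild type and to 176 to 210.5 CPM in *Tra2b-cPEko*, with a narrow overlap. By mean log2 CPM the macrophage list did not overlap (3.23 to 3.47 in wild type, 3.51 to 3.78 in *Tra2b-cPEko*). The 12 Sertoli cell markers summed to 7653 to 8148 and 7573 to 8448 CPM, which overlapped widely. The part of these lists in the enzyme levels was not tested either.

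Ratios of these genes within a library do not depend on the scaling between libraries. For the comparison 6 of them were used, chosen, like the genes, with earlier results of these data known. The summed TET level divided by the summed level of *Dnmt1*, *Dnmt3a* and *Dnmt3b*, both per length, was 0.274, 0.269, 0.289 and 0.293 in wild type mice and 0.305, 0.299, 0.305 and 0.297 in *Tra2b-cPEko* mice. Each *Tra2b-cPEko* mouse lay above each wild type mouse, though the gap between *Tra2b-cPEko* D and wild type D was small beside the distance from wild type A and B to C and D. The log2 difference was 0.10 with p = 0.0286 in the two-sided exact permutation test, the smallest that 4 against 4 mice allow, and a Benjamini-Hochberg adjusted p of 0.0857 over the 6 ratios, so that it did not pass the correction. It was 0.05 without wild type A and B and 0.15 without C and D. The ratio of *Dnmt3l* to *Dnmt3a* was 0.0168, 0.0229, 0.0168 and 0.0248 in wild type and 0.0142, 0.0160, 0.0157 and 0.0138 in *Tra2b-cPEko*. The groups did not overlap, with a log2 difference of -0.43 (exact permutation p = 0.0286, adjusted p = 0.0857), and this ratio carries the counting error of 23 to 66 *Dnmt3l* reads. The other 4 ratios overlapped. *Uhrf1* to *Dnmt1* was 0.812 ± 0.0443 in wild type and 0.817 ± 0.0454 in *Tra2b-cPEko* (SD, n = 4; exact permutation p = 0.886), and *Dnmt3b* to *Dnmt3a* was 0.818 ± 0.0716 and 0.795 ± 0.0563 (exact permutation p = 0.714). *Tet1* to *Tet3* was 0.0767 ± 0.0107 and 0.0806 ± 0.00586 (exact permutation p = 0.6), and *Tet2* to *Tet3* was 0.118 ± 0.00603 and 0.119 ± 0.00687 (exact permutation p = 0.8).

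**Figure D5:**
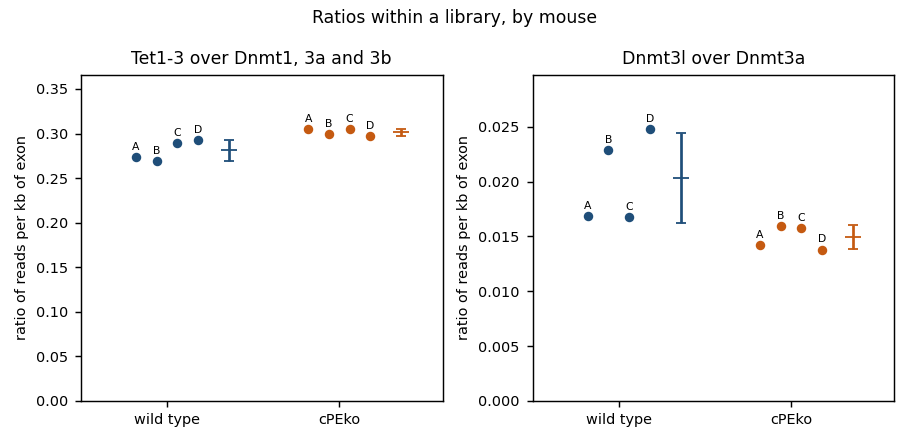
The within-library ratios of the TET sum to the DNMT sum and of Dnmt3l to Dnmt3a, as levels per length, each point a mouse, with bars for the mean and SD (n = 4). These ratios do not overlap between genotypes. The other 4 of the 6 ratios, which do overlap, are not drawn.

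The genes that work with these enzymes were read from 8 lists of 104 genes, of which 102 were tested. None was called by edgeR. At an unadjusted p under 0.05 there were 3 higher and 18 lower genes, 20.6% of those tested beside 15.3% of all genes, and 35 were higher and 67 lower in all, with a median log2 fold change of -0.04. DESeq2 called 4 of them: *Lig1*, *Mael* and *Rrm2* as lower and *Apobec3* as higher, which is 3.96% of the 101 with an adjusted p, near its share over all genes (2.79%).

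The 13 maintenance partners had a median of -0.04 and 1 gene with an unadjusted p under 0.05. This was *Lig1*, the ligase that joins Okazaki fragments and recruits UHRF1 when methylated, at 174 ± 4.65 CPM in wild type and 149 ± 7.60 CPM in *Tra2b-cPEko* without overlap (SD, n = 4; log2 fold change -0.22, SE 0.05, edgeR adjusted p = 0.0791). *Hdac1*, a histone deacetylase that binds DNMT1, was at -0.09 (adjusted p = 0.362, edgeR). The 16 genes of S phase and cell division, in which maintenance methylation takes place, had a median of -0.06 with 4 lower and 0 higher at an unadjusted p under 0.05, beside 7.07% lower and 8.22% higher over all genes. The differentiating spermatogonia markers were lower without overlap in the same mice, as given above, and their part in these values was not tested. The leading members were *Rrm2*, the regulated subunit of ribonucleotide reductase (-0.25, adjusted p = 0.145, edgeR), and *Mcm3*, a subunit of the replicative helicase (-0.10, adjusted p = 0.235, edgeR).

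The 13 de novo targeting genes, which include writers and erasers of histone marks that steer DNMT3 enzymes, had a median of -0.04. *Ezh2*, the H3K27 methyltransferase, was at -0.14 (adjusted p = 0.258, edgeR) and *Setd2*, which writes the H3K36 trimethylation that DNMT3 enzymes read, at 0.10 (adjusted p = 0.371, edgeR). *Dnmt3c*, the rodent paralogue that silences young retrotransposons, was not analysed here. The 12 genes of piRNA-directed methylation, by which PIWI proteins guide de novo methylation to transposons, had a median of -0.14, and 8 of them had an unadjusted p under 0.05, all lower, beside 7.07% of all genes. Wild type A and B, the mice with the high spermatocyte markers, had the higher levels of most of these: *Ddx4*, a germ cell RNA helicase, averaged 266 CPM in A and B, 223 CPM in C and D and 218 CPM in *Tra2b-cPEko*, and *Piwil2*, a PIWI protein, 290.1, 256 and 248 CPM. Not all had this order: in the same groups *Piwil4* averaged 9.76, 10.6 and 8.87 CPM, and *Pld6* 18.1, 17.8 and 15.7 CPM. Without A and B the list had a median of -0.07 with 4 lower and 1 higher (4.24% of all genes were lower in that fit), and without C and D a median of -0.21 with 7 lower (13.3% of all genes). The part of the spermatocytes in this list was not tested. *Mael*, a piRNA factor, was at -0.22 (adjusted p = 0.140, edgeR) and *Pld6*, a mitochondrial protein of piRNA biogenesis, at -0.20 (adjusted p = 0.182, edgeR). *Mael* was among the genes that the study had itself chosen on these samples, so that it is not independent evidence of a direction.

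Of 10 TET partners none had an unadjusted p under 0.05, and the median was -0.05. *Cxxc4*, which binds unmethylated CpG and interacts with TET2, was at -0.17 (adjusted p = 0.517, edgeR), and *Idh2*, which makes the 2-oxoglutarate that TET enzymes consume, at 0.10 (adjusted p = 0.434, edgeR). The list of excision and repair had 15 tested genes. It also held *Apobec3*, a cytidine deaminase that restricts retroviruses and is not an excision enzyme. *Apobec3* was at 30.2 ± 1.27 CPM in wild type and 38.5 ± 3.57 CPM in *Tra2b-cPEko* without overlap (SD, n = 4, log2 fold change 0.35, SE 0.07, edgeR adjusted p = 0.0620). The macrophage markers were also higher in *Tra2b-cPEko* by mean log2 CPM, as given above, and their part in this value was not tested. *Polb*, the polymerase of base excision repair, was at -0.24 (adjusted p = 0.193, edgeR), and the median of the list was -0.03. The 8 methyl-CpG readers had a median of 0.04, led by *Zbtb38* (0.15, adjusted p = 0.214, edgeR). The 15 genes of the methyl donor cycle had a median of 0.01, with *Ahcyl2*, a relative of S-adenosylhomocysteine hydrolase, at -0.16 (adjusted p = 0.179, edgeR).

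For the 2 genes with the smallest unadjusted p, the genes with the most similar profile over the 8 mice were sought by the root mean square difference of mean-centred log2 CPM. For *Dnmt3l* they were *Kcng1* (0.10), *Scn10a* (0.14) and *Adgrb2* (0.14), beside a median of 0.28 over 15477 genes. For *Tet2* they were *Fastkd1* (0.023), *Ptpn9* (0.027) and *Fam160b1* (0.027), beside a median of 0.14 over 15476 genes. None of these 6 genes was called between the genotypes, with edgeR adjusted p between 0.237 and 0.479. The profile includes the genotype difference, so this follows in part from how they were chosen and is no separate result.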

How the data were processed

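Testis RNA of 8 mice was sequenced as paired-end mRNA libraries by the authors, and the deposited tables hold raw read counts per gene for each mouse. The labels' processing notes name HISAT2 2.2.1, SAMtools 1.7.1 and HTSeq 2.0.2, whereas the study's methods name Salmon for quantification. The tables have the layout of HTSeq output and were treated as such. The build was GRCm39 with its NCBI annotation and the library kit was stranded. Whether counting used strand is not given in the sources used here. Rows that name no gene were left out, which left 66.4% to 69.0% of each table's total (reads on no feature were 12.4% to 13.6%). Counts were fitted with edgeR 4.0.16 (R 4.3.3; TMM factors, filterByExpr with a least count of 10, robust quasi-likelihood test, Benjamini-Hochberg over 19104 genes, threshold 0.05); the biological coefficient of variation was 9.56%. CPM used TMM factors, with a prior count of 2 for log2 CPM. DESeq2 1.42.0, limma 3.58.1 (voom), other filters and scalings, covariates (a pachytene or an S phase list), left-out mice and a replicate block were alternatives, and the scripts were tested on simulated data. Exact permutation tests used SciPy 1.17.1. Lengths and loci came from GENCODE on GRCm39. Libraries of the same genotype differed by more than counting noise, with a chi-square of 6.20 to 19.0 per degree of freedom. The study's methods describe the mice as biologically independent.

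The 8 genes, the lists and the tests were chosen with earlier results of these data known. Named genes were the 8 members, the 2 genes of smallest unadjusted p in each of the 8 related lists (2 of these genes are not reported here), called genes of the 9 cell type lists, and the 3 nearest profiles (mean CPM of at least 1) of the 2 members with the smallest p. *Aire*, *Bola3*, *Tra2b*, *Ddx4*, *Piwil2* and *Piwil4* were named outside this rule, after their values were seen.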

Additional observations from a re-analysis of the deposited data

Results flagged for a closer look

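In 28 groups of 4 mice (8 genes and 6 ratios in each genotype), 1 value stood far from the other 3 by Dixon's criterion, where chance alone gives about 1.4. It was the ratio of *Uhrf1* to *Dnmt1* in *Tra2b-cPEko* mouse B, at 0.750, while the other 3 *Tra2b-cPEko* mice lay between 0.834 and 0.849. That mouse had the lowest *Uhrf1* (145 CPM) and the highest *Dnmt1* (312 CPM) of its genotype, and neither value alone was flagged. The wild type mice ranged from 0.760 to 0.868, a range that ends just above it.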

How the results depend on the processing

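No member was called by edgeR under any alternative except without wild type mice C and D, a fit added after seeing the data. There 2 were called, beside 8.29% of all genes tested. Thresholds of 0.1 and 0.01 also gave 0. The count of members with an unadjusted p under 0.05, 1 as reported, was 0 with no filter on low counts, DESeq2, upper-quartile factors, limma-voom, the replicate block and a filter at a mean count of 50, which removes *Dnmt3l*, 2 with the pachytene list as covariate and without wild type A and B, 4 without C and D, and 0 to 2 when each mouse was left out. Fold changes near 0 changed sign (log2): with the S phase list as covariate *Dnmt1* was 0.063 and *Dnmt3b* 0.050; with the pachytene list *Dnmt3a* was -0.035, *Tet1* -0.017 and *Tet3* -0.014; with upper-quartile factors *Uhrf1* was 0.0057; without A and B *Dnmt3a* was -0.044, *Tet1* -0.056 and *Tet3* -0.039; without C and D *Dnmt1* was 0.020 and *Dnmt3b* 0.16. Leaving out each mouse gave -0.035 to 0.01 for *Uhrf1*, -0.0015 to 0.0507 for *Dnmt3a* and -0.0894 to 0.0423 for *Dnmt3b*. The causes were not tested. Of the ratios (log2 difference), *Uhrf1* to *Dnmt1* was -0.044 without C and D and -0.0238 to 0.0484 without each mouse, *Dnmt3b* to *Dnmt3a* 0.069 without C and D and -0.0846 to -0.0002 without each mouse, *Tet1* to *Tet3* -0.016 without A and B and -0.013 to 0.1495 without each mouse, and *Tet2* to *Tet3* -0.035 without C and D and -0.0076 to 0.0515 without each mouse. *Dnmt3l* to *Dnmt3a* was -0.45 without A and B, -0.40 without C and D and -0.51 to -0.32 without each mouse, and the TET to DNMT ratio 0.05, 0.15 and 0.0798 to 0.1206; these smaller designs cannot reach 0.05. No pairing of the mice by replicate letter was seen in the correlations of deviations from the group means. They lay between -0.1355 and 0.1164 for the same letter and between -0.0983 and 0.1535 for different letters. So few values cannot decide whether the mice were paired. In the replicate block these 2 ratios stayed at -0.43 and 0.10 with an exact sign-flip p of 0.125, the smallest that 4 pairs allow. Genes of the related lists called were 0 with edgeR, 4 with DESeq2 and 14 of 102 without C and D (0 without A and B). The fit without C and D called 8.29% of all genes tested. Depth limits *Dnmt3l*, with at most 66 reads in a library.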
